A study of Drosophila melanogaster with 249 samples.

Results

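Antimicrobial peptides are small defence proteins that fly tissues, above all the fat body, release when microbes are sensed. The genes described here encode the attacins AttA (FBgn0012042), AttB (FBgn0041581), AttC (FBgn0041579) and AttD (FBgn0038530), the diptericins DptA (FBgn0004240) and DptB (FBgn0034407), the cecropins CecA1 (FBgn0000276), CecA2 (FBgn0000277) and CecC (FBgn0000279), and metchnikowin, Mtk (FBgn0014865). They were chosen by identifier from a list of names, and all 10 were found among the 17142 genes of the count table. In flies, bacterial peptidoglycan bound by PGRP-LC starts the Imd pathway, which ends in the NF-kB factor Relish, and Toll signalling ends in Dif and dorsal. Attacin, diptericin and cecropin genes are known mainly as targets of Imd, and Mtk as a target of both pathways. Attacins and diptericins act mostly on Gram-negative bacteria, cecropins permeabilise bacterial membranes, and metchnikowin acts on fungi and Gram-positive bacteria.

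RNA-Seq was performed on heads of adult Drosophila melanogaster aged 5 d and grown at 25°, with 10 heads pooled per library. The libraries used fall into 79 conditions, with 97 libraries of XX females, 96 of XX animals transformed into males by tra2 mutations (written tra2 XX), 39 of XY males and 3 of XY males with the tra2 mutations (tra2 XY). The XX conditions Df(1)ED7331/+ and w1118/w+ had 2 replicates and the other 77 conditions had 3. The labels name no infection or other microbial treatment.

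All deficiencies (Dfs) were heterozygous. The 19 X Df lines gave XX females with the Df over a w1118 X chromosome, and the 11 3L Df lines gave XX and XY animals with the Df over a homologue without one, from a cross to w1118. Every tra2 XX animal, in either set of lines, carried the tra2B allele over Df(2R)trix, which removes tra2, and came from crosses of several generations with other balancers than those of the XX and XY animals, so the tra2 alleles and this background cannot be told apart. The conditions without an X or 3L Df were w1118 in XX, XY, tra2 XX and tra2 XY, and w1118/w+ in XX and tra2 XX. The wild-type strain OreR in XX and XY also had none. The tra2 XX and tra2 XY animals among these carried Df(2R)trix. Below, conditions, lines or libraries without a Df are those without an X or 3L Df. On the BDGP6 annotation AttA, AttB, AttC, DptA, DptB and Mtk lie on 2R and AttD, CecA1, CecA2 and CecC on 3R, so that no X or 3L Df removes one of them. tra2 itself was lower in tra2 XX than in XX in 30 of 30 Df lines, with a median log2 ratio of −1.58. Among the genes measured around tra2, those lower in 30 of 30 lines lay between CG17385, 22 genes before it, and Uhg5, 8 genes after it, apart from Ciao1, 56 genes after it. Within that stretch Cpr51A was lower in 6 of 30 lines, and beyond it Dh44-R1, 27 genes before tra2, was lower in 29 of 30 lines and Tfb1, 39 genes before it, in 28 of 30. AttA and AttB lie 36 and 37 genes after tra2 and were lower in 0 and 13 of 30 lines.

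Libraries held between 667146 and 18679735 reads on genes, and the medians were 8859704 for XX, 5691607 for tra2 XX, 10022543 for XY and 8558525 for tra2 XY. No pair of replicates was alike within sampling noise, since the smallest chi-square per degree of freedom over 233 pairs was 2.58. Head markers were detected in each group, and the summed normalized read count of the ovary, testis and gut markers had medians between 0 and 6.50. Single libraries were higher, up to 664 for ovary and 309 for gut in XX and 93.1 for testis and accessory gland in XY. The summed level of 6 head fat body genes, which include the yolk proteins, had a median of 581937 among XX libraries, 31745 among XY libraries and 49130 among tra2 XX libraries, and Fbp1, one of these genes, had a median of 0 in tra2 XX. In the w1118 tra2 XY group this sum was 163147 in replicate 1 and 21799 and 21262 in replicates 2 and 3, so replicate 1 stands apart. Fewer cells of a type and less RNA per cell cannot be told apart in libraries of whole heads.

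The first question is how the members were expressed in each group. Normalized read counts are the reads of a gene divided by 1 size factor per library. AttA had a lowest, median and highest normalized read count of 2.08, 17.3 and 549 in XX, of 24.9, 310.0 and 2179 in tra2 XX, and of 2.52, 14.6 and 271 in XY. AttA was thus higher in tra2 XX by its median, although the ranges overlapped. AttB ranged from 3.95 through a median of 102 to 2315 in XX, from 32.8 through 206 to 1625 in tra2 XX, and from 11.1 through 73.8 to 1107 in XY. AttC ranged from 32.4 through a median of 327 to 16887 in XX, from 2.14 through 189 to 3376 in tra2 XX, and from 7.44 through 98.7 to 5521 in XY. AttC was the single member with a higher median in XX than in tra2 XX. AttD, an attacin predicted to lack a signal peptide, was scarcely detected. It was at 0 in 48 of 97 XX, 25 of 96 tra2 XX and 23 of 39 XY libraries, and its highest normalized read counts were 21.3, 93.8 and 18.2. With 0 reads, a level of up to 3 reads per library is not detectable.

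Of the diptericins, DptA had a lowest, median and highest normalized read count of 0, 32.6 and 9964 in XX, of 2.85, 172 and 8289 in tra2 XX, and of 0, 27.0 and 4478 in XY. DptB had 2.68, 47.8 and 5691 in XX, 3.56, 231 and 3336 in tra2 XX, and 1.88, 23.8 and 2163 in XY. Mtk had 5.17, 154 and 12619 in XX, 11.4, 775 and 7382 in tra2 XX, and 4.24, 83.0 and 5183 in XY. For these members the tra2 XX median was the highest and the groups overlapped over most of their range. The highest library reached 306 times the median for DptA in XX and 48.1 times the median in tra2 XX.

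The cecropins were low in most libraries. CecA1 had a median normalized read count of 3.45 for XX, 22.2 for tra2 XX and 2.19 for XY, with highest values of 239, 311 and 234.7. CecA2 had medians of 0.943, 16.8 and 0.594 and highest values of 87.6, 506 and 48.8. CecC had medians of 4.10, 7.47 and 2.58 and highest values of 177, 111 and 79.3. CecA1 exceeded 6 normalized read counts in 41.2% of XX and 85.4% of tra2 XX libraries, and CecA2 in 21.6% and 84.4%. Over all libraries used, 22 were at 0 for CecA1, 54 for CecA2, 23 for CecC and 3 for DptA, and none for AttA, AttB, AttC, DptB or Mtk. AttA and AttB, and likewise CecA1, CecA2 and CecC, are close copies, so the division of their reads is uncertain.

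**Figure D1:**
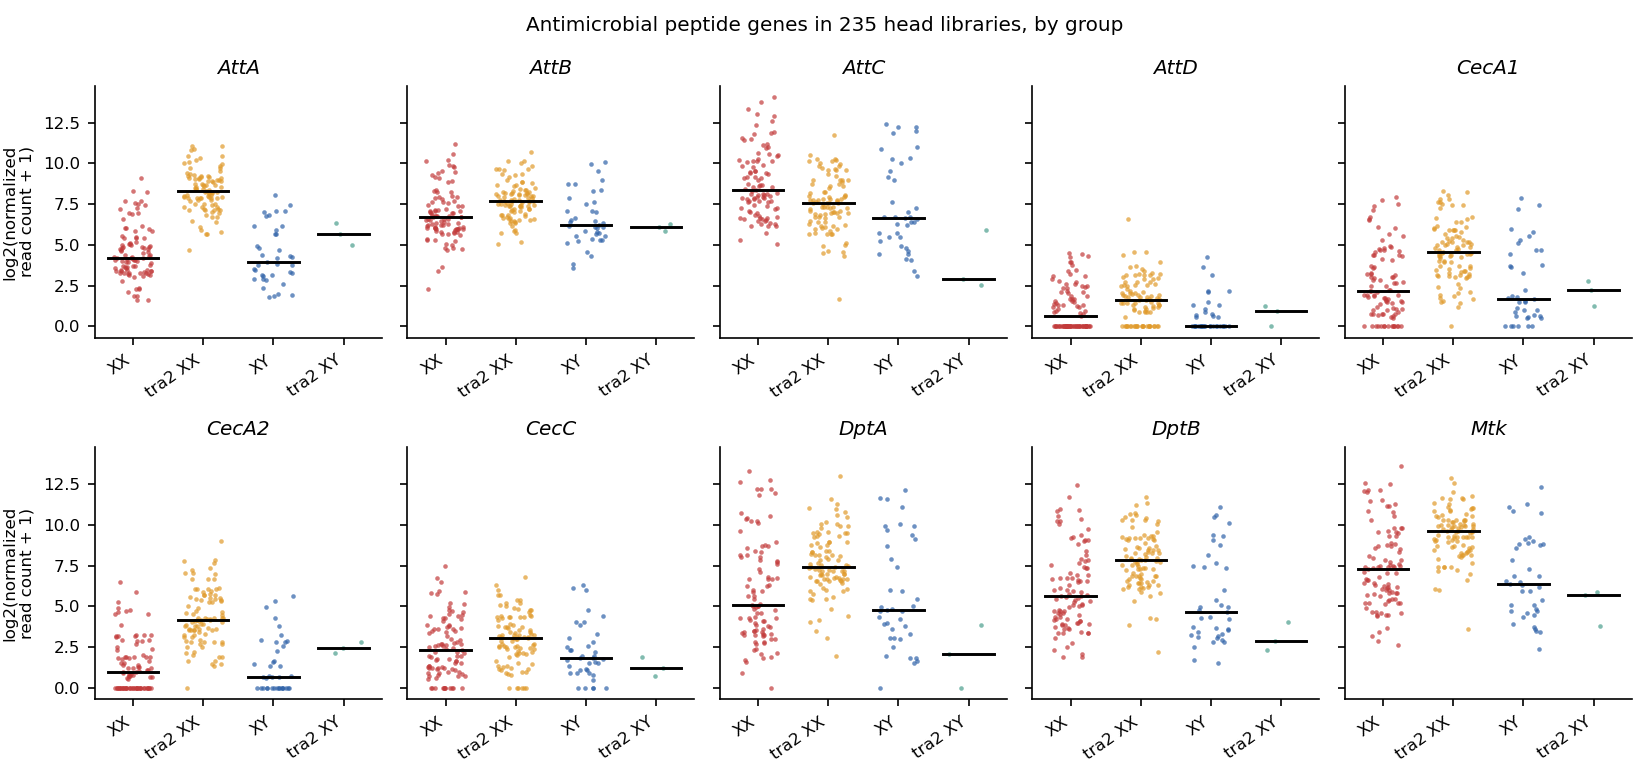
Levels of the 10 antimicrobial peptide genes, as log2(normalized read count + 1), in 97 XX, 96 tra2 XX, 39 XY and 3 tra2 XY libraries. Each point is 1 library and the bar is the median of the group. AttA and CecA2 show the clearest shift of tra2 XX above XX and XY, with medians of 310.0 against 17.3 and 14.6 and of 16.8 against 0.943 and 0.594 normalized read counts, whereas AttC has its highest median in XX.

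Levels of different genes were compared per length, in FPKM. Mtk had the highest median FPKM in each group, at 270.2 in XX, 1566 in tra2 XX, 169 in XY and 124 in tra2 XY. In XX it was followed by AttC at 46.8, DptB at 27.96, AttB at 17.3, DptA at 13.6, CecA1 at 3.37, AttA at 3.06, CecC at 2.95, CecA2 at 0.71 and AttD at 0.119 FPKM. In tra2 XX the order of median FPKM after Mtk was DptB at 148, DptA at 64.7, AttA at 57.0, AttB at 32.9, CecA1 at 24.0, AttC at 23.5, CecA2 at 15.01, CecC at 5.96 and AttD at 0.399. AttC was next to Mtk in XX and moved behind 5 other members in tra2 XX, and AttA moved ahead of AttB, CecA1 and AttC. In XX, tra2 XX and XY, the ranges over libraries overlapped for every pair of neighbours in these orders.

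The members varied between single libraries more than nearly all other genes. The SD within conditions of log2(normalized read count + 1) lay between 1.14 for AttB and 2.29 for DptA, against a median of 0.301 over 9307 genes with a median over 6 normalized read counts. Each member had a larger SD within conditions than at least 99.4% of these genes. Not every member meets that limit of 6 itself. AttD, with a median of 0.524 in XX and 2.11 in tra2 XX, is thus ranked against genes with more reads. Among conditions without a 0, the highest replicate of a condition exceeded the lowest by a median of 3.03-fold for AttB, 4.18-fold for AttA, 6.16-fold for AttC, 7.86-fold for DptA and 9.84-fold for CecA2. DptA differed by over 10-fold between replicates in 35 of 76 conditions, DptB in 33 of 79 and Mtk in 23 of 79. An example was Df(1)ED7153/+ XX, in which DptA had 3894, 0.9 and 16.5 normalized read counts in the 3 replicates.

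The summed normalized read count of the 10 members gave the order of the libraries. The sum had a lowest, median and highest value of 116, 679 and 45243 in XX, of 84.8, 2147 and 25997 in tra2 XX, and of 63.8, 289 and 18990 in XY, and the 3 tra2 XY libraries had 257, 158 and 215. The highest sum was that of Df(3L)ED217/+ XX replicate 2, followed by Df(3L)ED4457/+ XX replicate 2 at 32369, Df(3L)ED4457/+ tra2 XX replicate 1 at 25997, Df(3L)ED4421/+ XX replicate 3 at 24382 and Df(3L)ED4475/+ XX replicate 1 at 23457. The next 5 were Df(3L)ED217/+ XX replicate 1 at 20872, Df(3L)ED217/+ XY replicate 1, Df(3L)ED4457/+ XX replicate 1 at 16222, Df(3L)ED4287/+ XX replicate 1 at 15055 and Df(3L)ED4457/+ tra2 XX replicate 3 at 14427. These 10 libraries held 32.2% of the summed normalized read count of the members over all libraries used. Of the 10, 7 came from Df(3L)ED217/+ or Df(3L)ED4457/+. AttC was the largest member in 8 of the 10, DptA in 1 and Mtk in 1. Within conditions, Spearman's rho of the member score, the mean of the members' standardized deviations, was 0.018 with depth and between −0.10 and 0.09 with the summed markers of each of 6 tissues, given as a description over all libraries used.

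**Figure D2:**
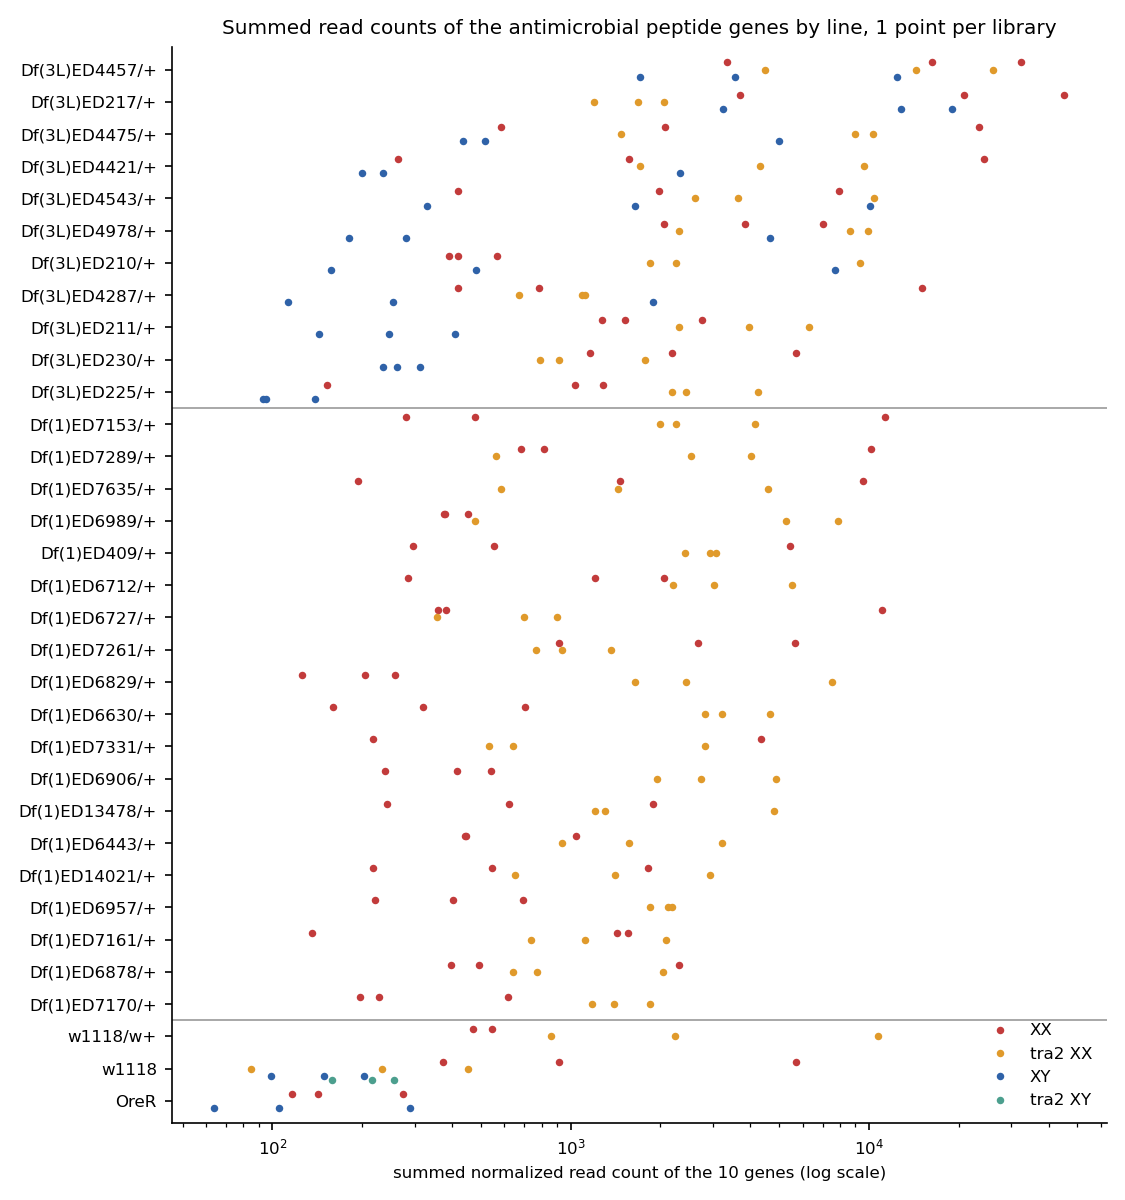
Summed normalized read count of the 10 members in each library, on a log scale, by line and group. Each point is 1 library of 10 heads. The 3L Df lines are above, X Df lines in the middle and lines with neither below. Single libraries of many XX lines stand far to the right of their replicates, and Df(3L)ED217/+ is high in XX and XY but lies between 1199 and 2061 in tra2 XX.

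The lines of a group were then compared with each other. In an edgeR quasi-likelihood F test with Benjamini-Hochberg adjustment over all genes, 10 of 10 members differed among the 33 XX conditions, against 72.7% of all genes, and 10 of 10 differed among the 32 tra2 XX conditions, against 56.3% of all genes. Among the 13 XY conditions, 9 of 10 members differed, against 22.4% of all genes, and AttD did not pass (edgeR adjusted p = 0.0733). The smallest adjusted p in XX was 8.03e-06 for AttC, in tra2 XX 2.86e-06 for DptA and in XY 0.000235 for CecC. Without replicate 3 of each condition the count for XY was 2, and without replicate 1 that for tra2 XX was 4.

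Each condition was also set against the mean of the others of its group, with adjustment over all genes and conditions. In XX, 42 of 330 tests of a member in a condition were higher, against 3.99% over all genes, and 2 were lower, against 2.36%. In tra2 XX, 20 of 320 were higher, against 2.04%, and 6 were lower, against 1.47%. In XY, 18 of 130 were higher, against 1.78%, and none was lower (edgeR). For that count of 0, limma called 1 and adjustment within each comparison 3. Far fewer members were called higher with limma in each group, and those counts are given with the dependence on processing. The higher calls fell in 10 of 33 XX, 5 of 32 tra2 XX and 4 of 13 XY conditions. Of these 10 XX conditions 6 were 3L Df lines, 3 were X Df lines and 1 was w1118. DptA was called in 11 conditions, AttD and DptB in 10 each, and AttB in 5. AttD had few reads in most of its conditions, for example 31, 0 and 0 in Df(3L)ED4543/+ XX.

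Df(3L)ED217/+ had the highest mean sum of the members among the XX and among the XY conditions, and ranked 23 of 32 among the tra2 XX conditions. The sums of the members were 20872, 45243 and 3694 in its 3 XX libraries, 18990, 3244 and 12829 in its 3 XY libraries, and 2061, 1199 and 1687 in its 3 tra2 XX libraries. Over all lines other than Df(3L)ED217/+ and Df(3L)ED4457/+ the medians were 583 in XX, 253 in XY and 2147 in tra2 XX, so the XX and XY libraries were above, and the tra2 XX libraries below, that median. DptA had 4680, 9964 and 326 normalized read counts in XX, 4478, 969 and 3199 in XY, and 232, 106 and 244 in tra2 XX. In XX, 10 of 10 members were higher than in the other conditions, against 1.63% of all genes, with log2 fold changes from 2.57 for AttA to 5.21 for DptA (edgeR quasi-likelihood test, adjusted p from 7.71e-09 to 0.0045). In XY, 10 of 10 members were higher, against 0.653% of all genes, with log2 fold changes from 2.67 for AttA to 5.12 for DptA (edgeR adjusted p from 1.98e-05 to 0.00649). In tra2 XX no member passed the edgeR test, and 0 had an unadjusted p under 0.05, with log2 fold changes from −1.48 to 0.18. With Df(3L)ED4457/+ also set aside, 2, 0 and 15 of the 91 remaining XX libraries had a higher sum than XX replicates 1, 2 and 3, 0, 4 and 0 of the 33 remaining XY libraries than the XY replicates, and 47, 64 and 55 of the 90 remaining tra2 XX libraries than the tra2 XX replicates.

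How far Df(3L)ED217/+ stood from the other 3L lines was compared directly between groups. In a single line the Df and the cross that its libraries share cannot be told apart. The log2 fold change in XX exceeded that in tra2 XX by 2.75 for AttD to 6.13 for CecA2, with unadjusted p under 0.05 for 10 of 10 members. None of these passed the adjustment over all genes and differences, with a lowest edgeR adjusted p of 0.0532 for CecA2. The log2 fold change in XY exceeded that in tra2 XX by 3.76 for AttA to 5.87 for DptA, with a lowest edgeR adjusted p of 0.101, and for XX against XY no member passed (edgeR adjusted p of 1 for each). Over all 11 3L lines no member passed, against 0.0128% of all genes and differences. The test was added after the values were seen.

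Df(3L)ED4457/+ was high in all 3 groups, with sums of 16222, 32369 and 3353 in XX, 25997, 4471 and 14427 in tra2 XX, and 12462, 3562 and 1705 in XY. AttC had 6272, 16887 and 1566 normalized read counts in the XX libraries and 3376, 196 and 1459 in the tra2 XX libraries. With Df(3L)ED217/+ also set aside, 2, 0 and 15 of 91 libraries of the remaining lines had a higher sum than XX replicates 1, 2 and 3, 0, 17 and 0 of 90 than the tra2 XX replicates, and 0, 4 and 6 of 33 than the XY replicates. In XX, 10 of 10 members were higher, against 2.91% of all genes, with log2 fold changes from 2.25 to 4.77. In tra2 XX, 9 of 10 were higher, against 10.1%, the exception being AttD, with DptA at a log2 fold change of 3.74 ± 0.48 (SE, edgeR adjusted p = 2.94e-08). In XY, AttC, DptA, DptB and Mtk were higher, against 1.19% of all genes, by log2 fold changes from 2.94 to 3.94. With limma on log2 normalized read counts the 3 counts were 5, 4 and 0, and with replicate 1 or replicate 3 of every condition left out the count for tra2 XX was 4.

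Other calls were lost when 1 replicate number was left out of every condition of the group. In Df(3L)ED4475/+ XX, with sums of 23457, 583 and 2077, 5 members were higher, against 0.662% of all genes (AttC, AttD, DptA, DptB and Mtk), and without replicate 1 none was. In Df(3L)ED4421/+ XX, with sums of 263, 1571 and 24382, 4 members were higher, against 1.76% (AttC, DptA, DptB and Mtk), and without replicate 3 none was. In Df(3L)ED4475/+ XY, with sums of 4986, 518 and 436, the 3 cecropins were higher, against 2.17%, and without replicate 1 none was. In Df(3L)ED4978/+ tra2 XX, with sums of 9955, 8663 and 2301, AttA, AttB, AttD and DptB were higher, against 0.921%, and without replicate 1 none was. Each of these counts was 0 with limma.

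The same holds in part for lines without a Df. The condition w1118/w+ tra2 XX, with sums of 2242, 861 and 10739, had 4 members higher, against 12.3% of all genes, and without replicate 3 the count was 1. These were the 3 cecropins and AttD, which reached 93.8 normalized read counts in replicate 1 and had 4.73 and 11.6 in the others. In w1118 tra2 XX, with sums of 453, 84.8 and 233, AttA, AttB, AttC, DptA, DptB and Mtk were lower than in the other conditions, against 8.09% of all genes, with log2 fold changes from −2.05 to −5.44. Without replicate 1 or 3 that count was 1. In OreR XX, AttB and AttC were lower, against 5.43% of all genes, with log2 fold changes of −4.28 and −4.11 (edgeR adjusted p = 0.0135 and 0.0464). Neither passed when replicate 1, 2 or 3 of each condition was left out.

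The next comparison was that of transformed and female heads, with lines as the units and the reads of the replicates of each condition summed. The comparison in 3L lines shares its tra2 XX and XX libraries with the comparisons to XY below. Of the condition means, AttA lay between 147 and 888 normalized read counts in tra2 XX and between 5.10 and 194 in XX over the 19 X lines. In the 11 3L lines it lay between 270.3 and 1340 in tra2 XX and between 7.97 and 175 in XX. AttA was higher in tra2 XX in 19 of 19 X lines and in 11 of 11 3L lines. Its log2 fold change was 3.70 ± 0.33 (SE, 19 lines, edgeR quasi-likelihood test, adjusted p = 4.76e-09) in X lines and 3.73 ± 0.38 (SE, 11 lines, adjusted p = 2.14e-09) in 3L lines, and it passed under every alternative fitted.

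CecA2 had condition means of 4.01 to 71.7 normalized read counts in tra2 XX and of 0 to 12.5 in XX over the X lines. In the 3L lines the means were 9.45 to 103 in tra2 XX and 0 to 51.4 in XX. It was higher in tra2 XX in 19 of 19 X lines and 10 of 11 3L lines, by log2 fold changes of 3.64 ± 0.41 and 3.08 ± 0.62 (SE, edgeR adjusted p = 1.75e-07 and 8.12e-05). CecA1 was higher by 2.12 ± 0.50 in X lines and by 1.48 ± 0.57 in 3L lines on the log2 scale (edgeR adjusted p = 0.00118 and 0.023). CecC had log2 fold changes of 0.83 and 0.33 that did not pass (edgeR adjusted p = 0.12 and 0.556). The 3L call of CecA1 was lost without Df(3L)ED210, Df(3L)ED211 or Df(3L)ED4978.

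AttC went the other way. Its condition means were 29.6 to 568 normalized read counts in tra2 XX and 105 to 1553 in XX over the X lines, and 68.9 to 1677 in tra2 XX and 237 to 8242 in XX over the 3L lines. It was lower in tra2 XX in 14 of 19 X lines and 10 of 11 3L lines. The log2 fold change was −2.12 ± 0.52 in 3L lines (SE, edgeR adjusted p = 0.000749) and −0.93 ± 0.42 in X lines, where it did not pass (edgeR adjusted p = 0.0666). The X value passed with DESeq2 (adjusted p = 0.022) and with single libraries as units (edgeR adjusted p = 0.0021).

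Mtk and DptB passed in X lines only, with log2 fold changes of 2.07 ± 0.48 and 1.70 ± 0.49 (SE, edgeR adjusted p = 0.00108 and 0.00602) against 0.51 ± 0.50 and 0.62 ± 0.57 in 3L lines (edgeR adjusted p = 0.366 and 0.33). Without replicate 1, Mtk passed in 3L lines too, at 1.06 (edgeR adjusted p = 0.0274). Whether X and 3L lines differ was not tested. DptA had 1.41 ± 0.60 and −0.04 ± 0.65 (edgeR adjusted p = 0.0509 and 0.965), and AttB had 0.69 ± 0.29 and 0.78 ± 0.40 (edgeR adjusted p = 0.0487 and 0.0825). The X call of AttB was lost in 15 of 28 alternatives, and DptA in X lines passed in 13 of them, DESeq2 included. In total 6 of 9 members tested were higher in X lines, against 55.4% of all genes called in either direction. Of the 9774 genes tested there, 2655 were higher and 2764 lower. In 3L lines 3 members were higher and 1 lower of 10, against 71.2% of all genes. AttD was not tested in X lines because it was too low, and had 0.70 ± 0.49 in 3L lines. The median log2 fold change of the members was 1.70 in X lines and 0.66 in 3L lines, and that of all genes −0.01 in each. The head fat body markers had a median sum of 581937 in XX and 49130 in tra2 XX, and their part in these differences was not tested. Yp1, Yp2 and Yp3 are part of this sum, and the paper reports yolk protein genes at male levels in XX animals with tra2 mutations.

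**Figure D3:**
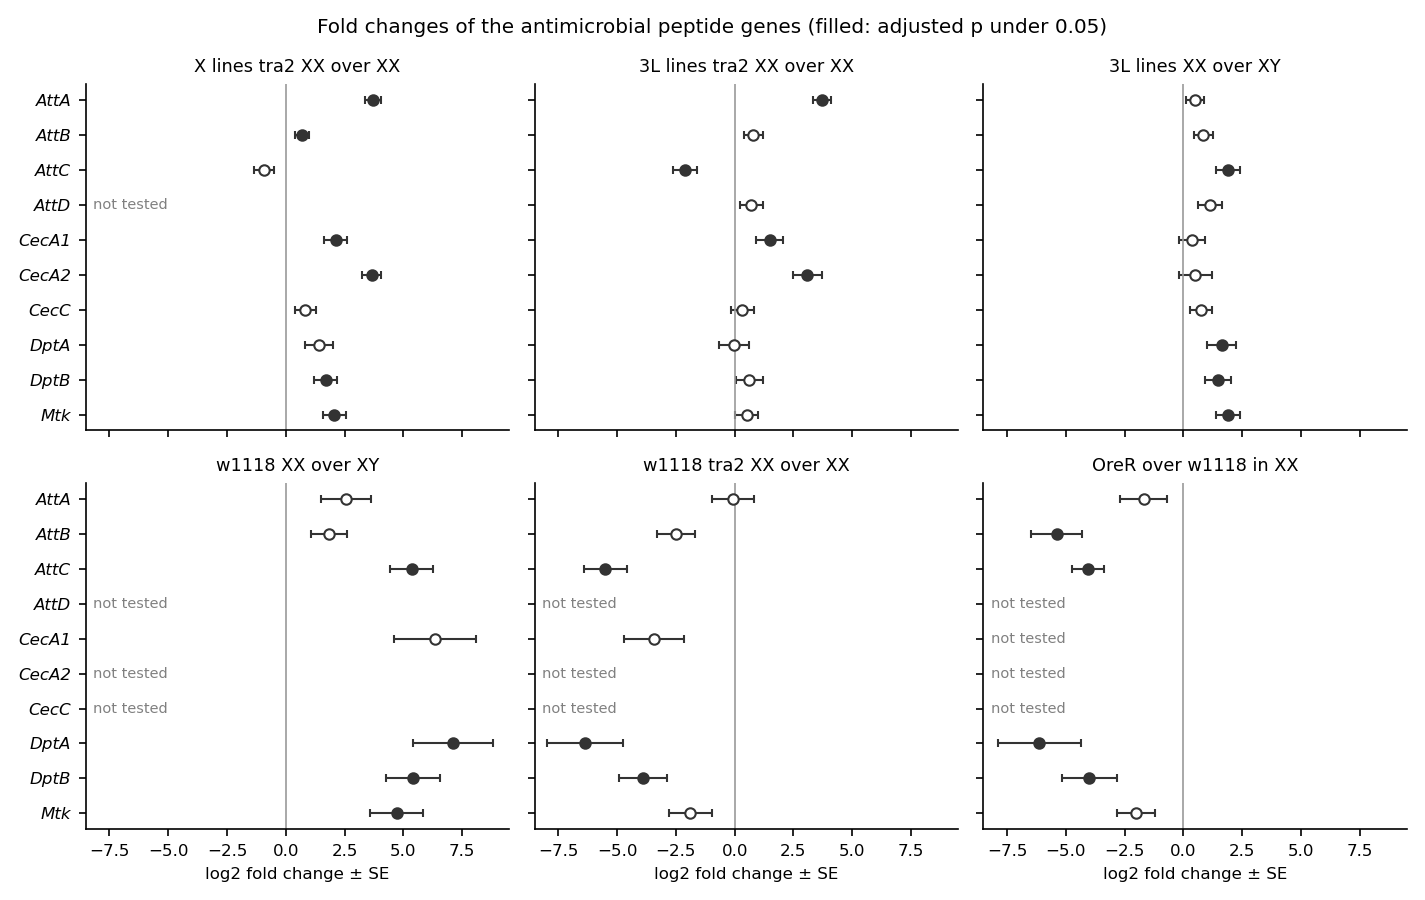
Log2 fold changes of the members with SE in the comparisons of 19 X lines, 11 3L lines, w1118 and OreR. Filled points have an edgeR adjusted p under 0.05 and open points do not. AttA and CecA2 are near 3.7 and between 3.08 and 3.64 in tra2 XX over XX in both sets of lines, AttC is below 0 in both, and the SE of single members is largest in w1118.

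Females and males were compared in the 11 3L lines. AttC had condition means of 237 to 8242 normalized read counts in XX and of 26.6 to 3851 in XY, and was higher in XX in 9 of 11 lines. Its log2 fold change of XX over XY was 1.88 ± 0.52 (SE, edgeR adjusted p = 0.00317). Mtk was higher by 1.90 ± 0.51 (edgeR adjusted p = 0.00247), DptA by 1.62 ± 0.63 (0.0319) and DptB by 1.48 ± 0.55 (0.0252). These 4 of 10 members passed, against 54.8% of all genes. AttA, AttB, AttD, CecA1, CecA2 and CecC had log2 fold changes between 0.36 and 1.13 that did not pass. The AttC and Mtk calls held under every alternative fitted. Without replicate 2 or replicate 3 the DptA and DptB calls were lost. They were also lost without single lines, DptA without Df(3L)ED4287, Df(3L)ED230, Df(3L)ED4421, Df(3L)ED4475 or Df(3L)ED211 and DptB without Df(3L)ED4287, Df(3L)ED230 or Df(3L)ED4421, and DptA with robust dispersions. Without Df(3L)ED217/+ AttB and AttD passed as well, so that 6 members did. The median sum of the head fat body markers, which include the yolk protein genes, was 581937 in XX and 31745 in XY, and its part was not tested.

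Transformed XX animals and XY males, both male in form, were compared in the same 3L lines. In tra2 XX over XY, 9 of 10 members were higher, against 76.9% of all genes called in either direction, and AttC was not (−0.23 ± 0.52, edgeR adjusted p = 0.69). AttA had the largest log2 fold change, 4.22 ± 0.38 (SE, edgeR adjusted p = 1.82e-10), followed by CecA2 with 3.59, Mtk with 2.41, DptB with 2.11, CecA1 with 1.85 and AttD with 1.84. CecC lay at the threshold, with a log2 fold change of 1.08 and an edgeR adjusted p of 0.05, and its call was lost in 12 of 20 alternatives. That of DptA (edgeR adjusted p = 0.0302) was lost in 7 of 20. Of the 10290 genes tested for tra2 XX over XY, 3950 were higher and 3960 lower.

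In w1118, without an X or 3L Df, the members were compared in 12 libraries. The tra2 XX and tra2 XY libraries among them came from animals with Df(2R)trix. AttC had 387, 249.8 and 1412 normalized read counts in XX, 20.7, 20.6 and 7.44 in XY, 21.3, 2.14 and 18.9 in tra2 XX, and 60.3, 4.84 and 6.61 in tra2 XY. DptA had 62.6, 9.36 and 1698 in XX, 7.47, 2.58 and 2.86 in XY, 7.39, 2.85 and 10.4 in tra2 XX, and 13.7, 0 and 3.30 in tra2 XY. For AttC and DptA the XX libraries were above all XY libraries, and XX replicate 3 was the highest for each member. Mtk had 167, 39.9 and 748 in XX and 14.4, 11.2 and 10.3 in XY.

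For XX over XY in w1118, AttC was higher by 5.34 ± 0.91 on the log2 scale (SE, n = 3 and 3, edgeR quasi-likelihood test, adjusted p = 0.00669), DptB by 5.399 ± 1.16 (0.02), Mtk by 4.71 ± 1.12 (0.0301) and DptA by 7.10 ± 1.70 (0.0308). These 4 of 7 members tested passed, against 6.48% of all genes. CecA1 had 6.35 ± 1.75 (edgeR adjusted p = 0.0519) and passed in 7 of 18 alternatives, DESeq2 among them (adjusted p = 0.00137), and AttA and AttB had 2.56 and 1.81 (0.168 and 0.176). AttD, CecA2 and CecC were too low to be tested. Per the paper, the flies for the 3 pools of a condition were collected as a triplicate. The p-values here and between the strains thus measure the spread between pools, not between collections. AttC passed under every alternative. Without XX replicate 3, DptA had 3.12 and Mtk 3.15 and neither passed, without XX replicate 1 Mtk did not pass, and without any 1 of the XY libraries DptA and Mtk did not pass. DptB was lost without XY replicate 1 or 2. Without XX replicate 2, 7 of 9 members tested passed.

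For tra2 XX over XX in w1118, AttC fell by 5.49 on the log2 scale (SE 0.93, edgeR adjusted p = 0.00233), DptA had −6.35 ± 1.61 (0.0202) and DptB −3.91 ± 1.02 (0.0232), and these 3 of 7 members passed, against 15.6% of all genes. AttA, with 131, 24.9 and 53.5 normalized read counts in tra2 XX and 17.9, 7.88 and 209 in XX, had a log2 fold change of −0.07 ± 0.89, and the groups overlapped. AttB had −2.50 and passed in 6 of 18 alternatives, DESeq2 among them (adjusted p = 0.0203). Without XX replicate 3 AttC alone passed, and DptA and DptB had −2.38 and −2.12. Leaving out any 1 tra2 XX library also ended the DptA and DptB calls.

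With the tra2 mutations, no member of 7 passed between XX and XY in edgeR (0 at an unadjusted p under 0.05, and 0 with DESeq2), against 0.254% of all genes. Between tra2 XY and XY no member passed in edgeR either (0 at an unadjusted p under 0.05, and 0 with DESeq2), against 5.72%. For the difference of XX over XY without and with the tra2 mutations, 0 of 7 members passed in edgeR, against 1.03% of all genes, while 3 had an unadjusted p under 0.05 and DESeq2 called 1. AttC had the lowest edgeR adjusted p, 0.0672, at a log2 difference of 5.90 ± 1.41. The smallest edgeR adjusted p for tra2 XX over tra2 XY was 0.745. Without tra2 XY replicate 1, whose fat body markers stand apart, 0 of 9 members tested passed in each of these 3 comparisons, and the AttC difference was 3.94 (edgeR adjusted p = 0.182). In the same fit 6 members passed for XX over XY and 4 for tra2 XX over XX. Of all genes, 1333 and 2368 were called there, against 639 and 1543 with that library kept. They numbered 456 for tra2 XX over tra2 XY, 1247 for tra2 XY over XY and 820 for the difference, against 25, 564 and 102.

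OreR, a wild-type strain, had low levels of the members. The sums were 275, 142 and 116 in XX and 63.8, 289 and 106 in XY, against 912, 372 and 5683 in w1118 XX and 203, 149 and 98.98 in w1118 XY. AttB had 11.3, 9.73 and 3.95 normalized read counts in OreR XX and 138, 50.8 and 869 in w1118 XX, with no overlap. The summed gut markers, which include PGRP-SC1a, were between 29.9 and 249 in OreR and between 0 and 2.36 in w1118 XX and XY libraries. The head fat body sum lay between 594260 and 1068190 in OreR XX and between 325133 and 468806 in w1118 XX, and the part of either in the strain differences was not tested. In XX, AttB was lower in OreR by −5.39 ± 1.08 on the log2 scale (SE, n = 3 and 3, edgeR adjusted p = 0.00652), and AttC had −4.06 ± 0.67 (0.00202), DptA −6.13 ± 1.75 (0.0412) and DptB −4.01 ± 1.16 (0.0437). These 4 of 6 members tested were lower, against 11.8% of all genes called in either direction. Of the 9865 genes tested, 672 were higher and 488 lower. AttA and Mtk had −1.69 and −2.01 and did not pass. AttB and AttC passed under every alternative. DptA and DptB were lost with robust dispersions, without w1118 XX replicate 3 (log2 fold changes of −2.09 and −2.15), without any 1 OreR XX library and without w1118 XY replicate 1 or 2. DptA was also lost without OreR XY replicate 3, and DptB without w1118 XX replicate 1 or OreR XY replicate 1. Without w1118 XX replicate 2, 7 of 9 members tested passed.

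In XY, 0 of 6 members passed between the strains in edgeR (1 at an unadjusted p under 0.05, and 0 with DESeq2), against 11.9% of all genes. Within OreR, no member passed between XX and XY in edgeR (0 at an unadjusted p under 0.05, and 0 with DESeq2), against 10.6% of all genes, with log2 fold changes from −1.59 for AttB to 0.77 for Mtk. The difference of XX over XY between the strains passed for 0 of 6 members in edgeR, against 0.0101% of all genes, with 6 at an unadjusted p under 0.05, and DESeq2 called 1.

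The near-identical attacins AttA and AttB divided their reads differently between groups. In XX, the ratio of AttA to AttB reads had a lowest, median and highest value of 0.045, 0.16 and 0.763 in X lines and of 0.042, 0.176 and 0.409 in 3L lines, and no library of 56 and 33 was above 1. In XY 3L lines it was 0.0621, 0.199 and 0.35. In tra2 XX it was 0.654, 1.54 and 3.41 in X lines and 0.742, 1.51 and 2.71 in 3L lines, with 51 of 57 and 31 of 33 libraries above 1. The mean difference of the log2 ratio between tra2 XX and XX was 3.14 ± 0.73 (SD over 19 lines) in X lines and 3.199 ± 0.56 (SD over 11 lines) in 3L lines, positive in each line. Between XX and XY it was −0.14 ± 0.67 (SD over 11 lines).

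Among conditions without a Df the ratio of AttA to AttB lay between 0.131 and 0.241 in w1118 XX and between 0.116 and 0.142 in w1118 XY. It lay between 0.717 and 1.42 in w1118 tra2 XX, between 0.469 and 1.405 in w1118 tra2 XY, and at 0.573 and 0.715 in w1118/w+ XX. In OreR it lay between 2.36 and 4.64 in XX and between 0.87 and 1.94 in XY. The ratios are descriptions that were chosen after the values were seen, and which copy a read came from could not be checked. For CecA1 and CecA2 the median ratio was 3.00 for XX, 1.13 for tra2 XX and 3.00 for XY, and for DptA and DptB 0.871, 0.829 and 1.30.

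**Figure D4:**
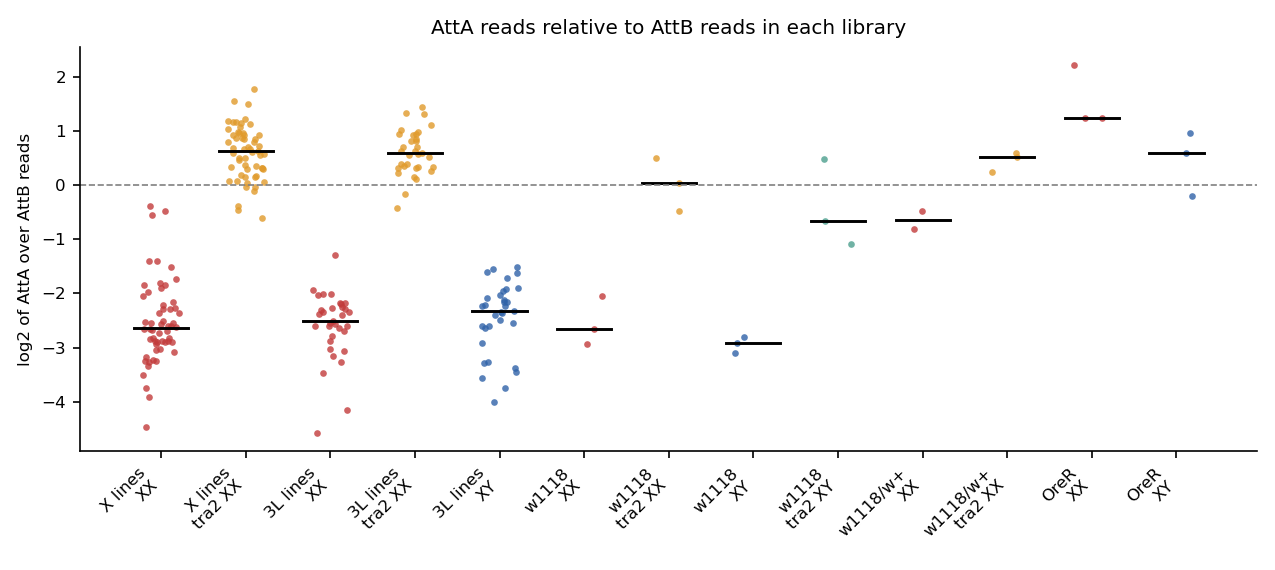
Log2 ratio of AttA to AttB reads in each library, by set of lines and group, with the median as a bar and equal reads as a dashed line. No XX or XY library of a Df line lies above equal reads, while 82 of 90 tra2 XX libraries of Df lines do, and OreR libraries lie near or above the line without the tra2 mutations.

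Within conditions the members deviated together. Over all libraries used, 45 of 45 pairs had a positive correlation of their deviations from the condition mean, with Pearson's r from 0.32 to 0.93 and a median of 0.70. Spearman's rho ranged from 0.26 to 0.91. The permutation p of a pair (100000 permutations within conditions, two-sided) was at most 9e-05 for r and 0.0007 for rho, and 1e-05 is the smallest these can give. Without the 2 libraries farthest from the median of the first member, r ranged from 0.31 to 0.93. The highest r was that of DptA and DptB, and AttA and AttB had 0.93. AttC deviated with DptB (0.91), DptA (0.88) and Mtk (0.86). AttD had the lowest values, from 0.32 to 0.52. Within single groups the median r of the pairs was 0.77 (XX), 0.61 (tra2 XX) and 0.80 (XY). The libraries of a condition share a cross, and neighbouring copies may share reads.

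**Figure D5:**
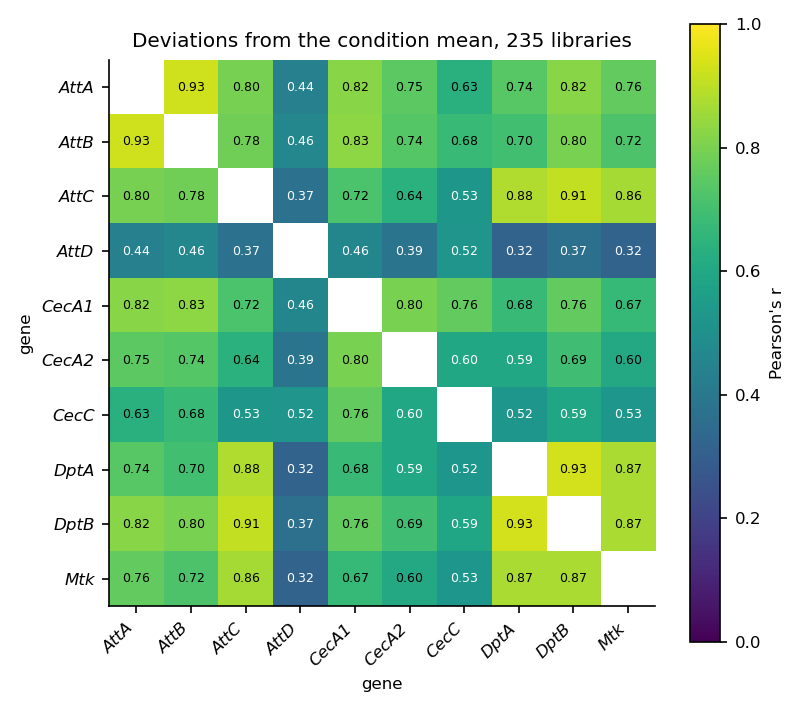
Pearson's r between members of their deviations from the condition mean, over all libraries used, printed in each cell and as colour from 0 to 1. All 45 pairs are positive, from 0.32 to 0.93, with AttD lowest against every other member.

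The genes most like the members were found by the same deviations among 9300 other genes. The nearest were PGRP-SB1 (r = 0.80), a secreted peptidoglycan recognition protein, CG45045 (0.80), Dro (0.80), which encodes the antibacterial peptide drosocin, Mtkl (0.71), a metchnikowin-like gene, and CG42807 (0.67). They were the 5 genes with r over 0.5, against a median r of −0.00 over the 9300 genes. The next were PGRP-SC2 (0.49), PGRP-SD (0.48), GNBP-like3 (0.44), FBgn0010381 (0.43) and CG4757 (0.43). The median normalized read count of Dro was 153 for XX, 789 for tra2 XX and 105 for XY, and that of PGRP-SB1 was 485, 1139 and 392. Of the Imd pathway itself, Rel, the NF-kB factor, had r = 0.37 and PGRP-LC 0.03.

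Other immune genes were followed as lists. Of 20 other antimicrobial effectors, which hold Dro, defensin (Def), the bomanins and drosomycin-like peptides, 14 of 16 tested were higher in tra2 XX than in XX in 3L lines, with a median log2 fold change of 1.20 against −0.01 over all genes, of which 71.2% were called in either direction. In X lines 12 of 14 were higher and 1, Def, was lower (−1.38), with a median of 1.05, against 55.4% of all genes called. Of all genes tested, 3643 of 10290 were higher in 3L lines and 2655 of 9774 in X lines. BomBc3 rose by 1.88 in 3L lines and by 2.15 in X lines (SE 0.18 and 0.19). For XX over XY in 3L lines 6 were higher and 2 lower of 16, with a median of 0.32, against 54.8% of all genes called. Drosomycin (Drs) was not analysed here.

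The Imd receptors and signalling genes, 16 in number, were called in both directions. The counts of this and the next 3 lists are to be read against 71.2% of all genes called in 3L lines and 55.4% in X lines. In tra2 XX over XX, 4 were higher and 9 lower in 3L lines and 4 higher and 6 lower in X lines, with medians of −0.17 and −0.05. Rel was higher by 0.44 and 0.58 on the log2 scale (SE 0.06 and 0.06), and Dredd, the caspase that cleaves Relish, had −0.81 and −0.47. Of 11 Imd negative regulators tested, 5 were higher and 3 lower in 3L lines and 6 higher and 2 lower in X lines. Among them pirk, which restrains PGRP-LC, was higher by 1.70 ± 0.19 and 2.37 ± 0.21, and PGRP-SC2, an enzyme that degrades peptidoglycan, by 1.97 and 1.74. For the 21 Toll genes the counts in tra2 XX over XX were 12 higher and 6 lower in 3L lines and 8 higher and 3 lower in X lines. Of 11 JAK-STAT and stress genes tested, 8 were higher and 1 lower in 3L lines and 7 higher and 1 lower in X lines, and Tep4, a thioester protein, was higher by 4.16 and 3.23.

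In w1118, 5 of 14 other effectors were higher in tra2 XX than in XX, against 15.6% of all genes called in either direction. For XX over XY 1 was higher, Dro by 5.59 ± 1.39, and 2 were lower, against 6.48%. Between the strains, PGRP-SC1a and PGRP-SC1b were higher in OreR than in w1118 by 9.57 and 8.71 in XX and by 9.68 and 9.60 in XY on the log2 scale, and pirk had −1.34 and −1.09. PGRP-SC1a and PGRP-SC1b are close copies, so the division of their reads is uncertain.

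The other effectors were also set against the other conditions line by line. In Df(3L)ED217/+ XX, 10 of 16 other effectors were higher, against 1.63% of all genes. Dro was higher by 4.67, edin by 3.995, CecB by 3.84 and Mtkl by 2.81 on the log2 scale. PGRP-SC2 was higher by 3.24 and Rel by 0.41. In Df(3L)ED217/+ XY, 5 of 15 effectors were higher, against 0.653% of all genes, with Dro at 5.06 and edin at 4.27. In Df(3L)ED217/+ tra2 XX 0 of 16 passed in edgeR, against 0.607% of all genes higher and 0.931% lower. In Df(3L)ED4457/+, 5 of 16 effectors were higher in XX, 6 of 16 in tra2 XX and 5 of 15 in XY. The shares of all genes higher were 2.91%, 10.1% and 1.19%. In Df(3L)ED4475/+ XX and Df(3L)ED4421/+ XX 1 of 16 was higher, against 0.662% and 1.76% of all genes. In Df(3L)ED4457/+ XX, edin was higher by 4.72, CecB by 3.595 and Dro by 3.22. In Df(3L)ED4421/+, PGRP-LC, PGRP-LA and PGRP-LF, which lie next to each other on 3L, were lower by −0.56, −1.07 and −1.24 in XX, by −0.98, −1.13 and −1.11 in tra2 XX and by −0.99, −1.34 and −1.80 in XY on the log2 scale. Whether this Df removes them was not tested. In those 3 groups 4, 1 and 0 of 10 members were higher (edgeR), against 1.76%, 2.48% and 1.07% of all genes. Whether the levels of the members depend on PGRP-LC, PGRP-LA or PGRP-LF was not tested.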

How the data were processed

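Poly-A RNA of pooled fly heads was sequenced, and the replicates of a condition were separate pools of 10 heads. Per the submitters' processing notes, reads were handled with CASAVA 1.8.2, TopHat2 2.0.10, Cufflinks 2.1.1, HTSeq 0.5.4p1 and DESeq2 1.6.3 on FlyBase 5.57. The authors deposited read counts per gene, a table of normalized read counts (a signal that equals the count divided by a size factor of the library, within 3.03e-09) and FPKM from Cufflinks. Per the study's methods, TopHat was run with -g 1 and the gene annotation so that reads mapping to 1 place were kept, which bears on close copies such as AttA and AttB. The counting options and the DESeq2 design are not given in the sources used here, and neither is a batch or date.

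Counts were tested with the quasi-likelihood test of edgeR 4.0.16 in R 4.3.3 with TMM normalization, filterByExpr and Benjamini-Hochberg adjustment over all genes tested, at a threshold of 0.05. In Df lines the reads of the replicates were summed and the line was a term. Rows that name no gene held 7.12% of reads and spike-ins 1.19%, and both stayed out. For descriptions, log2(normalized read count + 1) was used on 9307 genes with a median over 6, and 0.5 reads were added to each count of a ratio. Library depth is given with the results, and a p-value measures the spread between pools or lines. Alternatives were DESeq2 1.42.0, limma 3.58.1, other normalization, filters, dispersions, units, pseudocounts and FPKM, a replicate block and leaving out replicates or lines. The edgeR steps were tested on simulated data. Descriptions and plots were made with pandas 2.3.3, matplotlib 3.10.9, numpy 2.4.6 and scipy 1.17.1 in Python 3.11.15.

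The members and lists were chosen with earlier results of these data known. Named were the 10 members, up to 4 called genes per list and direction with the smallest p, the 10 genes most like the members, the 10 libraries with the highest sums, and up to 5 lines per group and direction with the most members called. Symbols and gene order came from BDGP6, which matched 16815 of 17142 genes. Of 249 libraries 14 were left out of the comparisons, as in the study, because they lacked replicates or a condition to compare with or came from Df(3L)ED4685, a Df that the study doubted. No sequences were used here.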

Additional observations from a re-analysis of the deposited data

Results flagged for a closer look

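The summed normalized read count of the members was also read in libraries that the comparisons do not use, and 8 of these 14 lay above each w1118 library of their group. In Df(1)ED7147/+ tra2 XX the sums were 3668 (replicate 1), 1288 (replicate 2) and 623 (replicate 3), and in Df(3L)ED4685/+ tra2 XX they were 2670.2, 1347 and 4009, against at most 452 in w1118 tra2 XX. In Df(3L)ED4685/+ the sum was 6060.2 in XX replicate 3, against at most 5667 in w1118 XX, and 899 in XY replicate 2, against at most 203 in w1118 XY. The w1118 tra2 XX libraries are the lowest condition of their group. Over the libraries used, the sums ranged from 84.8 through a median of 2147 to 25997 in tra2 XX, from 116 through 679 to 45243 in XX and from 63.8 through 289 to 18990 in XY, so the 8 values lie inside the range of their groups. The 8 values and the w1118 limits are in the normalization of all 249 libraries. Conditions of 3 libraries are too small for a test of single outlying libraries, so none was made.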

How the results depend on the processing

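Over the alternatives run, 350 counts and summaries stayed on their side or within 1.5 times, 58 were lower and 13 higher. Of the values of single members 1985 kept their side of the threshold, 146 lost and 71 gained the call, and none reversed. The cause was not tested in any case below. Of the members called, w1118 tra2 XX over XX (3) had 5 without a filter on low counts, 5 with all 23 libraries without a Df and 1 to 6 with 1 library left out. The w1118 difference of XX over XY (0) had 1 with DESeq2 and 1 without a filter, and the strain difference (0) had 1 with DESeq2. OreR over w1118 had 2 in XX with robust dispersions and 2 to 7 with 1 library left out (4), and 0 to 1 in XY (0). With 1 library, replicate number or line left out, w1118 XX over XY (4) had 1 to 7, 3L lines XX over XY (4) 2 to 6, differences among XY lines (9) 2 to 10 and among tra2 XX lines (10) 4 to 10, the latter 6 with limma.

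Of single conditions against the others, limma called 14 higher for XX (42), 5 for tra2 XX (20) and 7 for XY (18), and 1 lower for XY (0), where adjustment within each comparison gave 3. Limma called 5 members in Df(3L)ED4457/+ XX (10), 4 in tra2 XX (9) and 0 in XY (4), 0 in Df(3L)ED4475/+ XX (5) and XY (3), 0 in Df(3L)ED4421/+ XX (4), 0 in Df(3L)ED4978/+ tra2 XX (4) and 1 in w1118/w+ tra2 XX (4). Adjustment within each comparison gave 3 in Df(3L)ED4475/+ XX and 2 in Df(3L)ED4421/+ XX. With 1 replicate number left out the counts were 6 to 10 in Df(3L)ED4457/+ XX and 4 to 9 in tra2 XX, 0 to 5 in Df(3L)ED4475/+ XX and 0 to 3 in XY, 0 to 5 in Df(3L)ED4421/+ XX, 0 to 4 in Df(3L)ED4978/+ tra2 XX, 1 to 6 in w1118/w+ tra2 XX and 1 to 4 lower in w1118 tra2 XX (6). In all tra2 XX conditions together they were 8 to 34 higher and 1 to 5 lower (6), and in all XX conditions 0 lower (2 with all replicates). No member passed for a line between groups with any replicate number left out.

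Replicate numbers did not pair the libraries, since deviations of libraries with the same number had a mean correlation of 0.0176 over 3243 pairs, against −0.00874 over 6484 pairs with other numbers, and ranged from −0.399 to 0.483 between w1118 groups. With the replicate block the count was 2 for OreR over w1118 in XX, where DptA and DptB no longer passed (edgeR adjusted p = 0.13 and 0.104), 3 in Df(3L)ED4475/+ XX, 2 in Df(3L)ED4421/+ XX and 1 lower over all XX conditions, and the other counts stayed within 1.5 times.

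Over all genes, DESeq2 called 1088 genes against 639 in edgeR for w1118 XX over XY, 87 against 25 for tra2 XX over tra2 XY (43 with all 23 libraries, 456 without tra2 XY replicate 1), 945 against 564 for tra2 XY over XY, 469 against 102 for the difference (216 with all 23 libraries) and 56 against 1 for the difference between strains. The median SD of the members within conditions was 1.55, 1.26 with a pseudocount of 5 and 1.47 in FPKM. Of the 10 genes most like the members, 10 stayed with a pseudocount of 5, 8 in FPKM and 7 with a median over 50. Low reads limit AttD and the cecropins, which were not tested in all comparisons.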

Other observations

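In the other 6 libraries outside the comparisons the summed normalized read count of the members was 512 and 1485 in the XX libraries of Df(1)ED7225/+ and Df(1)ED7374/+, 944 and 381 in the remaining Df(3L)ED4685/+ XX libraries, and 201 and 154 in the remaining Df(3L)ED4685/+ XY libraries. None of these exceeded the highest w1118 library of its group.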
